A study of Mus musculus with 13 samples.

Results

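The genes described here are 10 regulators and antioxidant targets of NRF2, taken from the 11779 genes of a liver RNA-seq table by exact match of their symbols. They are Nfe2l2, Keap1, Nqo1, Gclc, Gclm, Txnrd1, Srxn1, Gsr, G6pdx and Osgin1, and all 10 were listed. Glutathione transferases, which are also NRF2 targets, were left out. Liver RNA came from Balb/c mice 5 days after injection of GalNAc-conjugated antisense oligonucleotides (ASOs). In the Liver LL35 ASO group (n = 3), the animals received ASOs against the long non-coding RNA LL35. The labels and the text of the study give 5 of these, whereas its supplementary list for mice holds fewer. In the Liver Luc ASO group (n = 3), the animals received an ASO against firefly luciferase. The labels give a dose of 150 mg/kg for each LL35 ASO, whereas the methods of the study speak of total ASO doses. All 6 mice had received a GalNAc-conjugated ASO, and no untreated liver was among these groups. AML12 cells, a mouse hepatocyte line, were not analysed here.

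NRF2, encoded by Nfe2l2, is a transcription factor that binds the antioxidant response element together with a small MAF protein. KEAP1 is the adaptor that holds NRF2 in the cytoplasm and presents it to a CUL3 ubiquitin ligase, and electrophiles or oxidants that modify cysteines of KEAP1 stop this degradation. The targets serve glutathione synthesis and recycling, the thioredoxin system, NADPH supply and the reduction of quinones. In the liver, hepatocytes depend on this response when they handle reactive metabolites of drugs and bile acids.

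For each gene, the table held a mean normalized count over the compared liver libraries, computed by the authors. This mean pools the LL35 ASO and Luc ASO livers, so it gives the level of a gene in these livers and neither the level in a group nor a difference between the groups. No value of a single mouse was used, so no SD accompanies any level below, and whether neighbours in an order of levels differ beyond the spread between mice could not be judged. The number of reads per library is unknown too. In bulk liver RNA, a low level in every cell and a higher level in a few cells cannot be told apart. All 9 hepatocyte markers were listed, with means from 3329 for Asgr1 to 1217472 for Alb, the gene of serum albumin, whereas 3 of 4 cholangiocyte markers (Epcam, Krt19 and Krt7) and 4 of 5 lymphocyte markers were not listed. Of the other liver cells, all 6 Kupffer cell, 5 endothelial and 5 stellate cell markers were listed. Their means ran from 120 to 1954, from 121 to 2171 and from 51.8 to 1823. Of the neutrophil markers 2 of 3 were listed, with means up to 23.0, and of the erythroid markers 2 of 3, with means up to 316. The gene of LL35, 9030622O22Rik, was not among the listed genes, so its knockdown could not be checked here.

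A short form of the antioxidant response element, TGACNNNGC, was searched on both strands of the RefSeq promoter windows of the members. It is only a part of the element that NRF2 binds, and 12.4% of all windows of the reference held it. A match is therefore not by itself a sequence that NRF2 recognises. Each window (GRCm38.p6) spans 250 bases before to 50 bases after an annotated gene start. Windows were found for 8 of the 10 members, and there were 10 windows in all since Txnrd1 has 3 annotated starts. Gclc and Gsr had no window. The 5 matches are shown with 10 bases on either side. Each reads 5′ to 3′ on the strand that carries the motif, whose 9 bases are in capitals.
Nfe2l2 (chr2:75704885-75704913, strand -): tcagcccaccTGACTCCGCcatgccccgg
Gclm (chr3:122245413-122245441, strand -): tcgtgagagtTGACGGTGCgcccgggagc
Srxn1 (chr2:152105542-152105570, strand -): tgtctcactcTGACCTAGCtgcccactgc
Txnrd1 (chr10:82859104-82859132, strand -): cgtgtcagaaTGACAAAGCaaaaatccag
G6pdx (chrX:74428919-74428947, strand +): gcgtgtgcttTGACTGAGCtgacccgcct

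Of the 10 member windows, 5 held the core, a share of 50% (95% Wilson interval 23.7 to 76.3%). The interval treats the windows as independent, although several belong to Txnrd1. The members were also chosen as regulators and targets of NRF2 and not drawn at random. Their share beside that of other windows is therefore a description and no test of enrichment. Among all 32851 windows of the reference, 12.4% held it, and among the 11980 windows of genes listed in the liver table, 14.0% did. The median GC content was 59.3% in the member windows, 60.7% in those of listed genes and 52.7% in all windows of the reference. The match lay on the strand of the gene in Nfe2l2, 240 to 232 bases before its start, and on the opposite strand in the other 4 genes. In Gclm it lay 134 to 126 bases before the start, in Txnrd1 92 to 84 bases before the second of its starts, and in G6pdx 57 to 49 bases before. In Srxn1 it covered bases 29 to 37 counted from the first base of the transcript. Only the match of Txnrd1 had the A that directly follows the core in a longer form of the element, and this longer form was found in 3.04% of all windows. None of the 5 overlapped the AP-1 motif TGANTCA, a related element that was searched on both strands. Keap1, Nqo1 and Osgin1 had no match in these windows, which says only that these letters are absent there. The matches are descriptions of sequence and not binding sites, as no binding of NRF2 was measured.

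**Figure D1:**
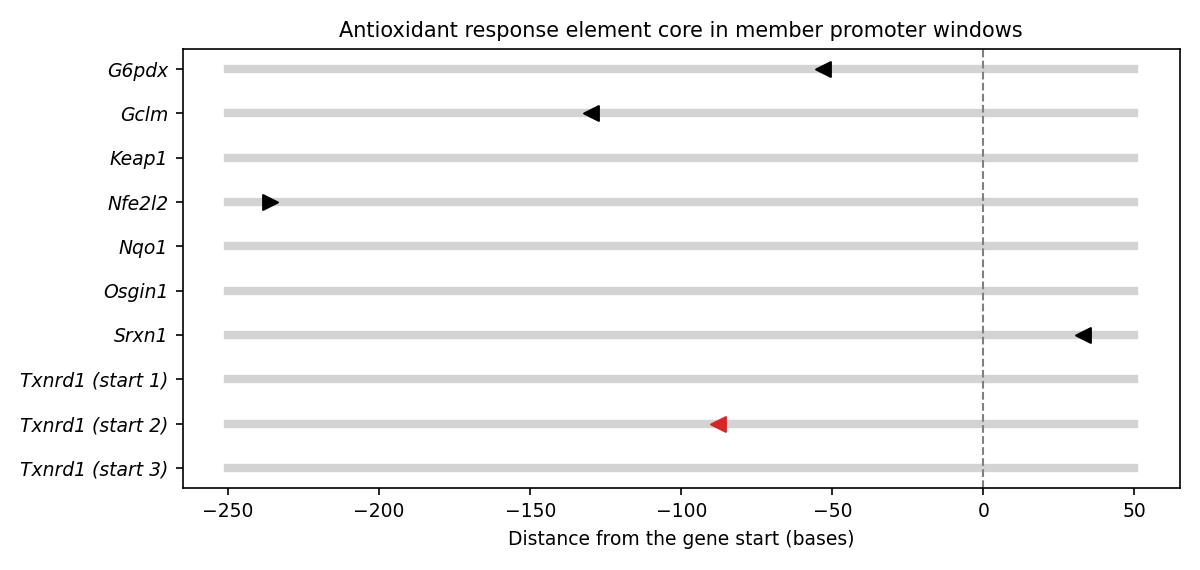
Places of TGACNNNGC in the 10 promoter windows of 8 members. The horizontal axis is the distance from the gene start in bases, each grey bar is a window, and a triangle points along the motif (to the right for the strand of the gene). The red triangle marks the longer core, in Txnrd1, and 5 of the 10 windows hold a match.

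Reads of a long transcript outnumber those of a short transcript at the same abundance, so genes were compared per kilobase of their merged exons in GENCODE M21. Over the 11754 listed genes with such a length, the median was 51.5 normalized counts per kilobase. The members ran from 17.3 for G6pdx to 797 for Gclc, with a median of 280, and 8 of the 10 lay above the median of all listed genes. Gclc, Osgin1, Gclm, Gsr, Txnrd1, Nfe2l2, Srxn1, Keap1, Nqo1 and G6pdx followed each other from the highest to the lowest. On the scale of mean normalized counts, with no regard to length, the same number lay above the median of 235, and Nqo1 and G6pdx were again the members below it.

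**Figure D2:**
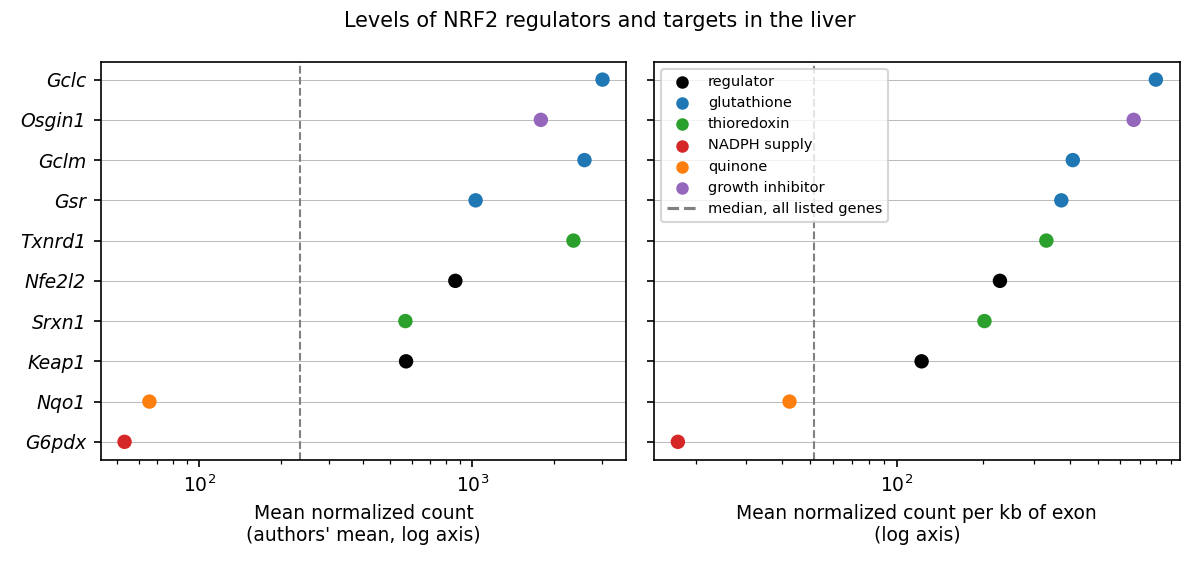
Level of each member in the liver, as the authors' mean normalized count (left) and the same per kilobase of exon (right), both on log axes. Each point is a pooled mean without error bars, coloured by role, and the dashed line is the median of all listed genes (235 and 51.5). Nqo1 and G6pdx stand to its left in both panels.

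The regulators stood in the upper part of the listed genes. Nfe2l2 had a mean normalized count of 868, or 229 per kilobase, higher than 85.5% of listed genes. Keap1 had 573, or 122 per kilobase, higher than 73.7%. Per kilobase, the RNA level of Nfe2l2 was thus 1.87 times that of its repressor Keap1, and the ratio lay between 1.58 and 2.21 with other measures of length. The exons of Keap1 share 510 of their 4693 bases with the antisense gene Gm16754. The authors counted with the GeneCounts mode of the aligner STAR, which sets aside reads that lie on exons of several genes. Whether strand was used is not stated, so reads of Keap1 may have been lost there.

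Genes of NRF2 partners and of its turnover were all listed, 11 of 11, and 9 of them lay above the median of all listed genes per kilobase. Sqstm1, whose protein p62 binds KEAP1 and draws it into autophagy, was the highest at 1165 per kilobase, or 9.55 times Keap1. Btrc, which encodes an F-box protein that recognises NRF2 phosphorylated by GSK3, was the lowest at 11.9. Cul3, the scaffold of the ligase that KEAP1 serves, had 184. Among the small MAF genes, Mafg had 224 per kilobase, Maff 127 and Mafk 40.0, and this order held under each measure of length. Nfe2l1, which encodes the related factor NRF1, had 334 per kilobase, and Bach1, a repressor that competes for the same element, had 233. Bach1 was 1.02 times Nfe2l2 on this scale but 0.70 times Nfe2l2 with the length of the longest coding transcript, so their order depends on the length used.

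The subunits of the ligase that starts glutathione synthesis were the highest and second highest members by mean normalized count, and Gsr was the 5th. Gclc encodes the catalytic subunit of glutamate-cysteine ligase, the rate-limiting enzyme of glutathione synthesis, and had a mean normalized count of 3002, or 797 per kilobase, higher than 95.5% of listed genes. Gclm encodes the modifier subunit, which lowers the feedback inhibition of the enzyme, and had 2578, or 410 per kilobase. Per kilobase of exon, Gclc was 1.95 times Gclm. Exons of other genes cover 296 of the exon bases of Gclm, and the ratio was 1.85 with unshared bases as length. The pseudogene Gm6061, on the same strand, covers 244 of these bases. Reads of Gclm may thus have been lost there whether or not strand was used. The order turned when coding bases alone were used, with a ratio of 0.52, since 857 of the 6291 exon bases of Gclm are coding. Gsr, which encodes the reductase that returns oxidised glutathione to its reduced form, had 1029, or 374 per kilobase, higher than 90.8% of listed genes.

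Of the 6 other genes of glutathione synthesis and use, 4 were listed, all above the median of listed genes per kilobase. Gss, the synthase that completes glutathione, was the lowest of them at 128 per kilobase, and Gclc was 6.24 times Gss, or 2.28 times with the longest coding transcript as length. Gpx1, the main cytosolic glutathione peroxidase, was the highest at 5183. Slc7a11, the cystine carrier and a classical NRF2 target, and Gpx2, a peroxidase of the gut epithelium, were not listed. The lowest mean in the table was 15.6, and the rule by which genes came to be listed is not stated, so no limit can be set on their levels.

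**Figure D3:**
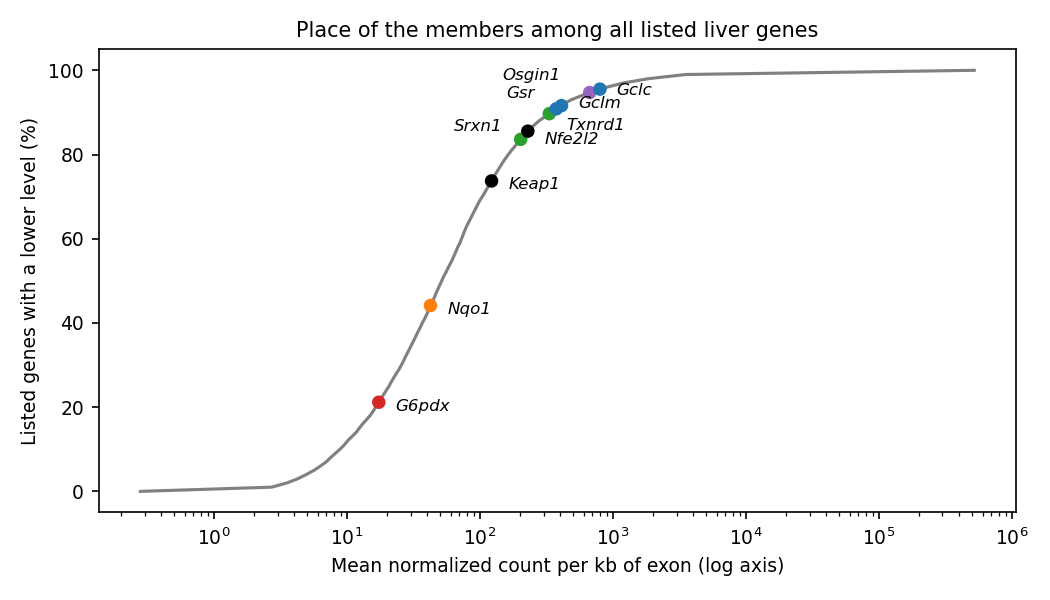
Place of each member among the listed liver genes. The grey curve gives, for each level per kilobase of exon (horizontal, log axis), the percent of listed genes below it (vertical), and points are the members, coloured by role as in the plot of their levels. G6pdx lies at 21.2% and Nqo1 at 44.1%, and the other members lie between 73.7% and 95.5%.

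In the thioredoxin system, Txnrd1, the cytosolic selenoenzyme that reduces thioredoxin, had a mean normalized count of 2349, or 332 per kilobase, higher than 89.7% of listed genes. Its paralogs were lower, with 69.3 per kilobase for the mitochondrial Txnrd2 and 20.2 for Txnrd3, which is best known from the testis. Txnrd1 was thus 4.79 times Txnrd2 and 16.4 times Txnrd3, and these ratios were 8.03 and 41.1 per coding base. Gsr and Txnrd1, the reductases of the glutathione and thioredoxin systems, stood at a ratio of 1.13 per kilobase of exon, which turned to 0.59 with the longest coding transcript as length.

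Srxn1 encodes sulfiredoxin, which repairs overoxidised peroxiredoxins. Its mean normalized count was 570, or 202 per kilobase, higher than 83.6% of listed genes. Of its 2820 exon bases, 465 are coding, and per coding base it stood higher, above 90.7% of genes. Of its clients, Prdx1 had 1899 per kilobase and the mitochondrial Prdx3 had 654, which is 9.40 and 3.24 times Srxn1. Per coding base, Prdx3 and Srxn1 stood at 1.02. All 11 thioredoxin and peroxiredoxin genes were listed, 10 of them above the median of all listed genes, with Prdx1 the highest and Txnrd3 the lowest. Txn1, the substrate of Txnrd1, had 1099 per kilobase.

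G6pdx was the lowest member. It encodes glucose-6-phosphate dehydrogenase, which opens the pentose phosphate pathway and makes NADPH, the reductant that both Gsr and Txnrd1 need. Its mean normalized count was 53.3, or 17.3 per kilobase, and 21.2% of listed genes were lower. This place was 14.5% per coding base and 9.88% when genes under 50 mean normalized counts were dropped. Exons of Ikbkg, which lies on the opposite strand, cover 418 of its 3080 exon bases, and the same count divided by the remaining 2662 bases was 20.0 per kilobase. G6pd2, a retrogene copy of G6pdx, was not listed. The GeneCounts mode of STAR counts only reads that map uniquely, so reads shared by the copies would be left out. How many were lost is unknown, so the level of G6pdx is uncertain.

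The other genes grouped under NADPH supply (Pgd, Pgls, Tkt, Taldo1, Me1 and Idh1) were all listed, 6 of 6, and each exceeded G6pdx. Not every enzyme they encode makes NADPH itself. Pgd, whose enzyme follows in the same pathway, was the lowest at 40.9 per kilobase, 2.36 times G6pdx, or 5.92 times with the longest coding transcript as length. Idh1, the cytosolic isocitrate dehydrogenase, was the highest at 1211, 69.9 times G6pdx. Me1, malic enzyme, had 125 per kilobase, 7.19 times G6pdx. Gclc, the highest member, stood 46.0 times above G6pdx.

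Nqo1, which encodes a quinone reductase and is widely used as a reporter of NRF2 activity, was the other member below the median. Its mean normalized count was 65.8, or 42.4 per kilobase, and 44.1% of listed genes were lower. This place dropped to 30.8% per coding base, to 32.9% with the longest coding transcript as length and to 34.3% when genes under 50 mean normalized counts were dropped. Its paralog Nqo2 had 128 per kilobase, 3.03 times Nqo1, and 9.34 times per coding base.

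Osgin1, an oxidative stress-induced growth inhibitor, was the second highest member per kilobase of exon and the 4th by mean normalized count. Its mean normalized count was 1785, or 667 per kilobase, higher than 94.7% of listed genes. With the longest coding transcript as length it stood at 890 and Gclc at 877, whereas per coding base it was the 4th of the 10, at 1245 per kilobase.

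Of 14 other NRF2 targets for haem, iron, aldehydes and export, 13 were listed and 11 lay above the median of listed genes, with a median of 258 per kilobase against 280 for the members. Ftl1, the ferritin light chain, was the highest at 5434 per kilobase and Abcc4, an export pump, the lowest at 19.1. Hmox1, haem oxygenase, had 258. Cbr3, a carbonyl reductase, was not listed. Among superoxide and peroxide enzymes, all 3 were above the median, from 227 per kilobase for the mitochondrial Sod2 to 5853 for Cat, which encodes catalase.

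**Figure D4:**
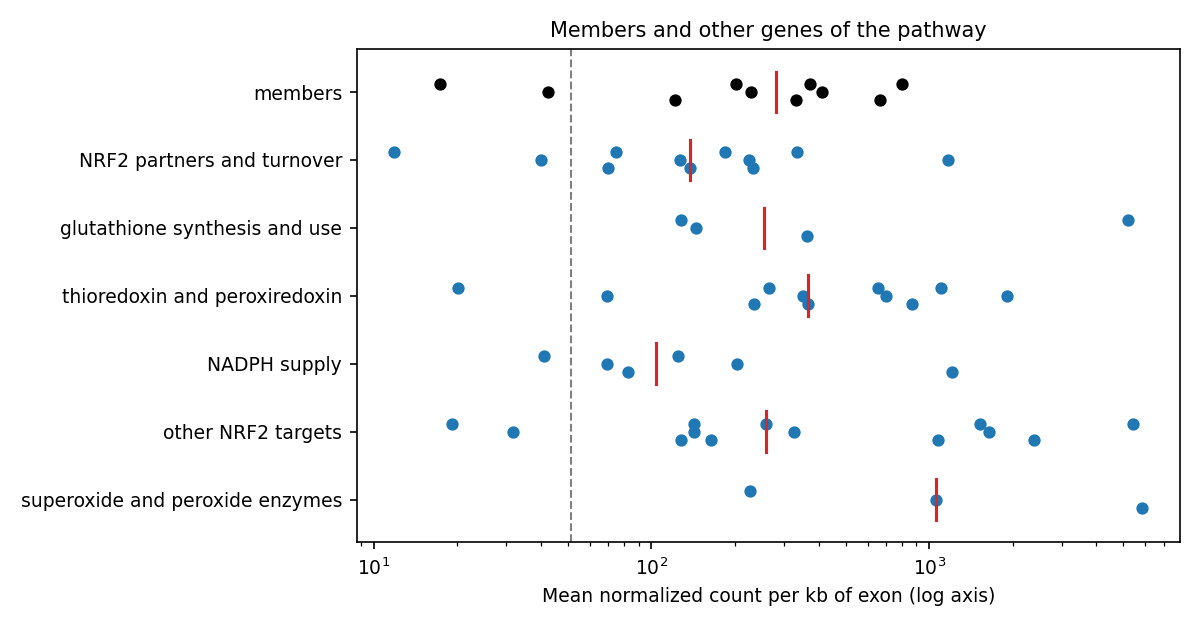
Level per kilobase of exon (horizontal, log axis) of the 10 members (black) and of the listed genes of 6 lists from the same pathway (blue). Each point is a gene and a pooled mean over the livers, red bars are list medians (280 for the members), the dashed line is the median of all listed genes (51.5), and points are spread vertically for legibility.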

How the data were processed

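RNA-seq libraries were made from rRNA-depleted liver RNA of 6 mice with a directional kit. As the methods of the study state, the authors aligned reads with STAR 2.5.3a, counted them on Ensembl genes and normalized by the RLE method of DESeq2. The genome build, annotation release and strand setting are not given in the sources used here. The authors' deposited mean normalized count is a signal averaged over the compared libraries. The deposited fold changes, standard errors, statistics and p-values hold the comparison that the authors made between the groups and were not used, so no test was run. AML12 cells were not analysed here.

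Means were divided by merged exon lengths of GENCODE M21 (GRCm38), matched by Ensembl identifier for 11754 genes, with 25 unmatched. Ranks are shares of listed genes with a lower value. Motifs were searched in RefSeq promoter windows (GRCm38.p6), with Wilson intervals that cover counting error only. Python 3.11.15, pandas 2.3.3, scipy 1.17.1 and matplotlib 3.10.9 were used, and length and motif steps were tested on simulated data. The members, lists and naming rule (all members, and the highest and lowest gene of each list, with paralogs and partners of members) were chosen with earlier results of these data known. Hmox1 was named after its value was seen.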

Additional observations from a re-analysis of the deposited data

How the results depend on the processing

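The number of members above the median of the ranked genes was 8 of 10 on both scales, and it stayed 8 when only protein-coding genes were ranked, when genes under 50 mean normalized counts were dropped, and under the 3 other measures of length, which were chosen after seeing the data. The order of the members was the same with exon bases shared with no other gene, while 5 members kept their place with the longest coding transcript and 3 with coding bases, with shifts of at most 2 places. The share of genes below a member depended on length. Per coding base it fell to 83.6% for Gsr, 77.6% for Nfe2l2 and 67.5% for Keap1. It also fell for Gclc, Osgin1, Nqo1 and G6pdx, and rose for Gclm, Txnrd1 and Srxn1. The share of member windows with the motif was 50%, and 40% when only bases before the start were searched (10.2% of all windows). With the longer core it was 10%, or 1 of 10 windows. The 95% Wilson interval of that share, 1.79 to 40.4%, covers the 3.04% of all windows. For the shorter core, the share was 62.5% (95% Wilson interval 30.6 to 86.3%) when genes were counted in place of windows. By the same count, 13.99% of all genes and 16.6% of listed genes held the motif. Counting genes was an alternative also chosen after seeing the data. A coding length from RefSeq proteins was not run, and coding bases of GENCODE M21 took its place. Leaving out a mouse was not run, since no value of a single mouse was used. No paired analysis was run, since the labels pair no mice between the groups and the means pool all mice. The reads per library are unknown, so the precision of low means, such as those of G6pdx and Nqo1, is unknown too.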
